A study of Mus musculus with 8 samples.

Results

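The genes described here are the fibroblast growth factor (FGF) genes of the mouse, their receptors, and the genes that signalling through those receptors switches on to limit or relay it. They were chosen by symbol: every Fgf ligand gene with a number, Fgfr1 to Fgfr4, Fgfrl1, the Sprouty genes Spry1 to Spry4, the Spred genes Spred1 to Spred3, and Etv1, Etv4, Etv5 and Dusp6. The rule found 38 of the 39179 genes counted, and 23 of these 38 had enough reads to be tested. The data are RNA-seq libraries of astrocytes sorted by their Aldh1l1-GFP reporter from the spinal cord of mixed Swiss-Webster mice at postnatal day 12 to 14. Kir4.1, encoded by Kcnj10, is the main inward rectifier potassium channel of astrocytes. The 4 control libraries (S1, S2, S6, S7), labelled wild-type, came from mice without cre, and the 4 knockout libraries (cKO; S3, S4, S5, S8) from mice that carried Aldh1l1-cre and had both Kir4.1 alleles floxed. Whether control mice carried floxed alleles is not given in the sources used here. Values per library are listed throughout in that order. Animals of both groups carried the reporter, and in cKO mice the cre and the reporter are both named for Aldh1l1, so the cells collected and the cells recombined were defined by the same gene. No label gives the sex of the animals.

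FGFs are secreted proteins that bind receptor tyrosine kinases on the cell surface together with heparan sulfate chains. The active receptor recruits the docking protein FRS2 and drives the RAS, RAF, MEK and ERK kinases. ERK signalling induces the ETS transcription factors ETV1, ETV4 and ETV5, and it also induces its own brakes: the Sprouty and Spred proteins, which act on the RAS and RAF steps, and the phosphatase DUSP6, which inactivates ERK. In the spinal cord, Fgfr3 marks the progenitors that become astrocytes and stays on in mature astrocytes.

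No FGF gene passed the threshold for a difference between cKO and control astrocytes. In edgeR's quasi-likelihood (QL) fit with Benjamini-Hochberg adjustment, 0 of the 23 tested members had an adjusted p under 0.05. Of all 14757 genes 47 did (0.318%), with 0.203% of all genes higher and 0.115% lower in cKO. The lowest adjusted p of a member from that edgeR fit was 0.377, for Fgfr2. At an unadjusted p under 0.05 there were 2 members, Fgfr2 and Fgfrl1, both higher in cKO, beside 9.81% of all tested genes (5.03% higher and 4.77% lower). That share is near the background. DESeq2 on the same counts also called 0 members, with 2 at an unadjusted p under 0.05. Control and cKO values were fully separated for 1 member, Fgfr2, against 6.34% of all tested genes (3.39% higher and 2.94% lower in cKO). The median log2 fold change over the 23 members was 0.25, beside −0.017 over all genes. Of the members, 15 had estimates above 0 and 8 below, where 48.4% of all tested genes had estimates above 0. The 95% interval of the log2 fold change lay within −1 and 1, that is within a 2-fold change, for 12 of the 23 members, beside 42.3% of all tested genes. For the other 11 members the interval reached past a 2-fold change.

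The libraries held between 13892736 and 25065686 gene reads. Of these, 32.6% to 44.3% came from ribosomal RNA-like transcripts. With those transcripts left out, 0 members were called by edgeR. Kcnj10 was at 1181 to 2306 CPM (read counts relative to library size) in controls and 27.2 to 37.6 CPM in cKO, so the targeted gene followed the labels in all 8 libraries. The 14 astrocyte markers other than Fgfr3 were all detected in every library and summed to 17823 to 26578 CPM in controls and 20521 to 25141 CPM in cKO. Of the full astrocyte list of 15 genes, Fgfr3 included, edgeR called 2 higher and 0 lower in cKO, beside 0.318% of all tested genes. That list had 3 genes at an unadjusted p under 0.05 and a median log2 fold change of 0.039. Markers of other cells were present as well. Those of oligodendrocyte precursors (9 genes, all detected in every library) summed to 681 to 1810 CPM in controls and 745 to 910.2 CPM in cKO, and those of oligodendrocytes (11 genes, all detected in every library) to 1527 to 2994 and 1017 to 2457 CPM. Markers of neurons reached at most 91.5 CPM, of endothelial cells 73.6 CPM, of microglia 66.7 CPM, of mural cells 52.4 CPM, of ependymal cells 30.05 CPM and of erythroid cells 9.97 CPM in any library, and fibroblast and meningeal markers were at 124 to 648 CPM in controls and 79.1 to 187 CPM in cKO. Every marker was detected in every library for endothelial cells (9 of 9), but not for microglia (8 of 10), neurons (10 of 12), mural cells (4 of 8), fibroblasts (4 of 8), ependymal cells (4 of 8), Schwann cells (3 of 6) or erythroid cells (1 of 5). No marker of any list was at 0 in all libraries. Per gene, 0 markers of these other cell types were called by edgeR, but the median log2 fold change was −0.96 for oligodendrocyte precursors (4 of 9 tested at an unadjusted p under 0.05), −0.46 for oligodendrocytes (3 of 11), −0.76 for endothelial cells (3 of 9), −0.66 for neurons (2 of 10) and −1.62 for fibroblasts and meninges (2 of 7). It was 0.29 for microglia (0 of 9). The part of these markers in the member values was not tested. The Schwann cell list, which shares Mbp with oligodendrocytes, summed to 565 to 1094 CPM in controls and 447 to 887 CPM in cKO. Pdgfra is in both the oligodendrocyte precursor list and the fibroblast and meninges list, so those lists are not independent. In bulk libraries such as these, fewer cells of a type and less RNA per cell cannot be told apart.

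Levels of different genes were compared only per transcript length, on the deposited FPKM values. Fgfr3 was the most abundant member in controls, at 279 FPKM ± 55.6 (SD, n = 4), and took place 199 among all 39171 genes in the FPKM table. Etv5 followed at 152 ± 33.1 FPKM. The next group was Fgf1 at 66.7 ± 25.3 FPKM, Fgfr2 at 64.98 ± 2.92, Spry2 at 49.8 ± 12.03, Fgfr1 at 45.3 ± 7.42 and Etv4 at 43.8 ± 7.79 FPKM (SD, n = 4 each). Spred1, Fgfrl1 and Spred2 were at 39.6, 35.7 and 35.5 FPKM, and Dusp6 and Etv1 at 24.6 and 19.1 FPKM. Fgfr3, Etv5 and Fgf1 did not overlap with one another, whereas from Fgf1 to Etv1 the control values of each gene overlapped with those of the next. Spry4 (8.53 FPKM) and Spred3 (7.32 FPKM) came next, and the other tested members were at 5.06 FPKM or less.

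**Figure D1:**
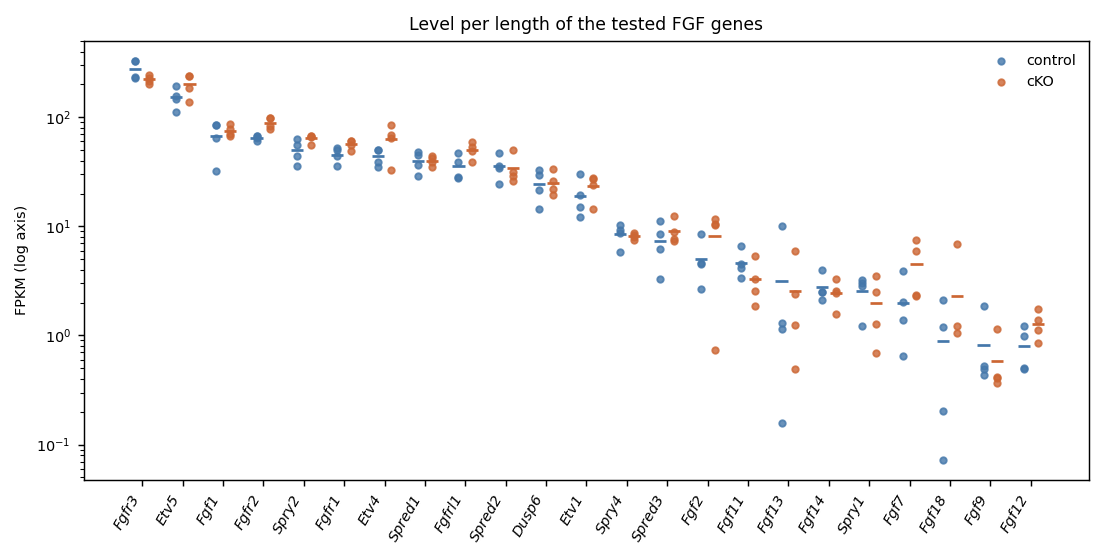
FPKM (log axis) of the 23 tested FGF genes, ordered by their control mean; points are the values of 4 control and 4 cKO libraries, short lines are group means, and the one value of 0 (Fgf18, cKO) is not drawn. Fgfr3 and Etv5 lie highest, at 279 and 152 FPKM in controls, and the groups overlap for most genes.

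Among the 18 secreted ligands, Fgf1 stood far above the others. Fgf1 encodes acidic FGF, a ligand that lacks a classical signal peptide and can bind all FGF receptors. It made up 75.2% ± 8.10 (SD, n = 4) of the summed FPKM of all Fgf genes in controls and 74.9% ± 4.84 (SD, n = 4) in cKO. That sum includes Fgf11 to Fgf14, which are not secreted. The control means of the secreted ligands alone summed to 75.8 FPKM, of which Fgf1 held 66.7 FPKM. Fgf1 (chromosome 18, 38838673 to 38929472 on GRCm38) was at 267, 253, 195 and 104 CPM in controls, and at 229, 257, 213 and 216 CPM in cKO. Control S7 was the lowest library, and all cKO libraries lay within the range of the controls. Its log2 fold change was 0.16 (standard error 0.24), with a 95% interval of −0.36 to 0.68, and it was −0.055 without control S7.

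The other 4 secreted ligands with enough reads to test were Fgf2, Fgf7, Fgf9 and Fgf18, all at low levels. Fgf2, basic FGF, was at 1.84, 3.35, 1.26 and 0.947 CPM in controls and at 3.58, 3.90, 0.114 and 2.14 CPM in cKO. The 2 counts of Fgf2 in cKO S5 set that library apart from the 50 to 86 counts of the other cKO libraries. Exons of Fgf2 overlap those of Nudt6 on the opposite strand, and the strand setting of the counting is not given in the sources used here, so its reads are uncertain. Fgf7, keratinocyte growth factor, is a ligand of the epithelial splice form of FGFR2. It was at 1.46, 3.49, 2.91 and 1.61 CPM in the controls and at 2.76, 3.58, 4.90 and 6.29 CPM in cKO. Its groups overlapped, and the log2 fold change of 0.89 had a 95% interval of −0.24 to 2.02. Fgf9, a ligand made mainly by neurons in the nervous system, was at 1.08, 1.16, 1.26 and 2.51 CPM in controls and 1.84, 0.998, 0.855 and 0.984 CPM in cKO. Fgf18 rested on few reads, with 2, 21, 18 and 1 counts in controls and 16, 104, 0 and 24 counts in cKO, where S4 held most of them. Adjusted p by edgeR QL was 0.617 or more for the 5 tested secreted ligands.

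The remaining 13 ligand genes had too few reads for the test, and 9 of them had 0 counts in all 8 libraries: Fgf3, Fgf4, Fgf6, Fgf8, Fgf15, Fgf16, Fgf20, Fgf21 and Fgf22. The deposited FPKM of Fgf20 nevertheless reached 0.164 in controls. Exons of Fgf15, Fgf20 and Fgf22 overlap those of genes on the opposite strand, so their counts of 0 are uncertain. A count of 0 allows up to 3 counts, which in these libraries is 0.128 to 0.218 CPM. Fgf8 patterns the early neural tube, and Fgf15 and Fgf21 are hormones of gut and liver. Fgf10 had 28, 4, 9 and 16 counts in controls and 0, 0, 0 and 22 in cKO. Fgf17 had 0 counts in every control library and 0, 0, 2 and 30 in the cKO libraries. Fgf23, the bone hormone of phosphate balance, had 8 counts in cKO S5 and 0 elsewhere, and Fgf5 had 1 count in each of 3 libraries. Each of Fgf17 and Fgf23 therefore rested mainly on 1 library.

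Fgf11, Fgf12, Fgf13 and Fgf14 encode the FGF homologous factors, which stay inside the cell and bind voltage-gated sodium channels instead of FGF receptors. All 4 were tested and 0 were called, with a lowest adjusted p of 0.681 by edgeR QL. Fgf11 was the most abundant by FPKM, with a control mean of 4.66 ± 1.39 and a cKO mean of 3.27 ± 1.54 (SD, n = 4 each). Its level was 8.68, 15.5, 9.72 and 6.92 CPM in the controls and 10.8, 6.85, 5.87 and 3.72 CPM in cKO. Control S2 was highest and cKO S8 lowest, and the groups overlapped. Fgf14 was at 8.05, 6.33, 12.1 and 8.53 CPM in controls and 5.11, 9.80, 6.50 and 7.32 CPM in cKO. Fgf12 ranged from 1.16 to 4.62 CPM over the 8 libraries and Fgf13 from 0.291 to 3.85 CPM. The log2 fold changes of the 4 were −0.58, 0.63, −0.76 and −0.29 in the order of their numbers, each with a 95% interval that reached past 1 or −1. With 1 library left out, Fgf11 ranged from −0.89 (without cKO S3) to −0.31 (without control S2), and Fgf12 from 0.43 (without cKO S5) to 1.02 (without control S7). Fgf13 ranged from −1.32 (without cKO S5) to −0.23 (without control S6), and Fgf14 from −0.47 (without cKO S4) to −0.089 (without control S6).

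The receptor genes include both members with an unadjusted p under 0.05, although none was called. In controls the order by FPKM was Fgfr3, Fgfr2, Fgfr1 and Fgfrl1. Values of Fgfr3 (227 to 330 FPKM) and of Fgfr2 (61.03 to 67.6) did not overlap with those of the next receptor, while Fgfr1 (35.4 to 52.04) and Fgfrl1 (27.6 to 47.3) overlapped. The order was the same in cKO, at 224 ± 18.98, 89.3 ± 10.5, 56.6 ± 5.29 and 50.3 ± 8.43 FPKM (SD, n = 4 each), and there too Fgfr1 and Fgfrl1 overlapped. Fgfr4 was the rare receptor, with no read in any control and with 42, 3, 11 and 0 reads in the cKO libraries. It entered a test only with a filter of at least 1 count in any library, where its adjusted p by edgeR QL was 0.256.

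Promoters of the receptor genes are shown because these genes lie at the entry of the pathway and differ in level, and because ETV factors bind the DNA core GGAA. RefSeq (GRCm38.p6) gave promoters, 250 bases before to 50 after a start, for 28 of the 38 members. Capitals mark a match to the ETS motifs CCGGAAGT, CAGGAAGT or CGGAAG on either strand, where CGGAAG lies within CCGGAAGT. All sequences are written 5′ to 3′ on the strand of the gene, and Fgfr3 has a second start whose promoter is not shown. Fgfr1 had no promoter entry, and the promoter of Fgfr4 is not shown either.
Fgfr3, chr5:33721474-33721773, plus strand: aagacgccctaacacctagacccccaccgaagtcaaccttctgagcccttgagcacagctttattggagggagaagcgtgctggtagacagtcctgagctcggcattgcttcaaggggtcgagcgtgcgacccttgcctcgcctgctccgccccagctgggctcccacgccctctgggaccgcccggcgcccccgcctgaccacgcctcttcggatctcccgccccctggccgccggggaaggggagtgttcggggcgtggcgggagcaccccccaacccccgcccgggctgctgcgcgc
Fgfr2, chr7:130266759-130267058, minus strand: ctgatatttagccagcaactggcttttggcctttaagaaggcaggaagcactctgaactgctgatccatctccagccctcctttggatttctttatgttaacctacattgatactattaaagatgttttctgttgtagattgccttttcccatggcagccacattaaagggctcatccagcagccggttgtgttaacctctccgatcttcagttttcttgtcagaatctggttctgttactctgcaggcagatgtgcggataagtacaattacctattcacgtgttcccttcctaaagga
Fgfrl1, chr5:108693979-108694278, plus strand: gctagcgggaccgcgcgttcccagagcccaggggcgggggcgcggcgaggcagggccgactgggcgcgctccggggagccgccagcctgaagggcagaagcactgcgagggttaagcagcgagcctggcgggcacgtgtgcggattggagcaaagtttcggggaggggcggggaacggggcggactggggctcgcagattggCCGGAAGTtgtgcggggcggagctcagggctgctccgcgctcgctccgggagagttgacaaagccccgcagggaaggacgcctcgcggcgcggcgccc

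The Fgfr3 window had a GC content of 69.7% and the Fgfrl1 window of 73.7%, both above the upper quartile of all promoters in the table (61.7%), while the Fgfr2 window, at 43.7%, lay below the lower quartile (45.7%). CCGGAAGT was found in 1 of 37 member promoters, that of Fgfrl1 (48 bases before the start), against 3.89% of all 32851 promoters. CAGGAAGT was in 0 of 37 member promoters and in 3.33% of all. CGGAAG was in 7 of 37 member promoters (18.9%), which belong to 6 genes, and in 16.9% of all. A match describes these letters in this window and is not evidence of binding.

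Fgfr2 encodes a receptor that glia of the oligodendrocyte lineage use as well as astrocytes. It was at 113, 114, 92.6 and 95.8 CPM in controls and at 120.3, 155, 156 and 128 CPM in cKO. Every cKO library lay above every control library, with cKO S3 closest to the controls. Group means were 104 ± 11.4 CPM for controls and 139.7 ± 18.4 CPM for cKO (SD, n = 4 each). The estimated log2 difference was 0.43 (standard error 0.16), with a 95% interval of 0.086 to 0.76. The adjusted p by edgeR QL was 0.377. The exact 2-sided permutation test gave p = 0.0286, which is the lower limit for 4 libraries a group. Any gene whose groups do not overlap gets that value, as 6.34% of all tested genes would, so it adds nothing to the separation itself. Markers of oligodendrocyte precursors summed to 681 to 1810 CPM in controls and 745 to 910.2 CPM in cKO, with a median log2 fold change of −0.96, and their part in this difference was not tested. In the annotation used, the longest Fgfr2 model reaches into Ctbp2 on the same strand, so the assignment of reads from the shared exons is uncertain.

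Fgfrl1 encodes a receptor that binds FGFs but lacks the kinase domain. It was at 78.9, 65.0, 46.6 and 46.6 CPM in the controls and 65.1, 91.3, 107 and 84.1 CPM in cKO. Control S1 lay above cKO S3, so the groups overlapped. This gave a log2 fold change of 0.55 (standard error 0.22), a 95% interval of 0.085 to 1.02 and an adjusted p of 0.408 by edgeR QL.

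Fgfr1 encodes a receptor widely expressed in the nervous system, and its exons overlap Gm16159 on the opposite strand. It was at 91.9, 102, 89.8 and 116 CPM in controls and 119.7, 122, 107 and 125 CPM in cKO, where only control S7 lay above cKO S5. Its log2 fold change was 0.25 with a 95% interval of −0.078 to 0.57. Fgfr3 was the receptor whose estimate lay on the other side of 0. It was at 903, 869, 621 and 644 CPM in controls and at 648, 616, 559 and 613 CPM in cKO. Control S1 and S2 were well above all other libraries, while control S6 and S7 lay within the cKO range. The 14 astrocyte markers other than Fgfr3 summed to 26578, 24563, 17823 and 17932 CPM in controls. In cKO they summed to 20564, 25141, 21179 and 20521 CPM, and their part in the Fgfr3 values was not tested. The log2 fold change of Fgfr3 was −0.32 with a 95% interval of −0.67 to 0.036, and the adjusted p by edgeR QL was 0.554.

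Because a ratio of genes within a library does not depend on its scaling, Fgfr3 was also set against the other receptors, a comparison chosen after the values had been seen and therefore given without a test. The CPM ratio of Fgfr3 to Fgfr2 was 7.97, 7.60, 6.71 and 6.72 in controls and 5.39, 3.98, 3.57 and 4.81 in cKO. The ratio of Fgfr3 to Fgfrl1 was 11.4, 13.4, 13.3 and 13.8 in controls and 9.97, 6.74, 5.23 and 7.29 in cKO. The ratio of Fgfr3 to Fgfr1 was 9.83, 8.54, 6.92 and 5.54 in controls and 5.42, 5.06, 5.22 and 4.89 in cKO. For these 3 ratios every cKO library lay below every control library, although for Fgfr1 the gap between control S7 and cKO S3 was small. The ratio of Fgfr2 to Fgfr1 overlapped, at 0.825 to 1.23 in controls and 1.005 to 1.46 in cKO. Measured per length, Fgfr3 made up 71.3% ± 4.35 of the summed FPKM of Fgfr1 to Fgfr4 in controls, from 67.6% to 76.2%, and 60.4% ± 2.90 in cKO, from 57.7% to 63.98% (SD, n = 4 each). Of the 22 other tested members, 6 had a ratio to Fgfr3 that was higher in every cKO than in every control library: Fgf1, Fgfr1, Fgfr2, Fgfrl1, Spry2 and Spred3. None was lower throughout. Of all tested genes, 9.13% had a ratio to Fgfr3 that did not overlap, 8.34% higher in cKO. A ratio does not tell which of its genes differed.

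**Figure D2:**
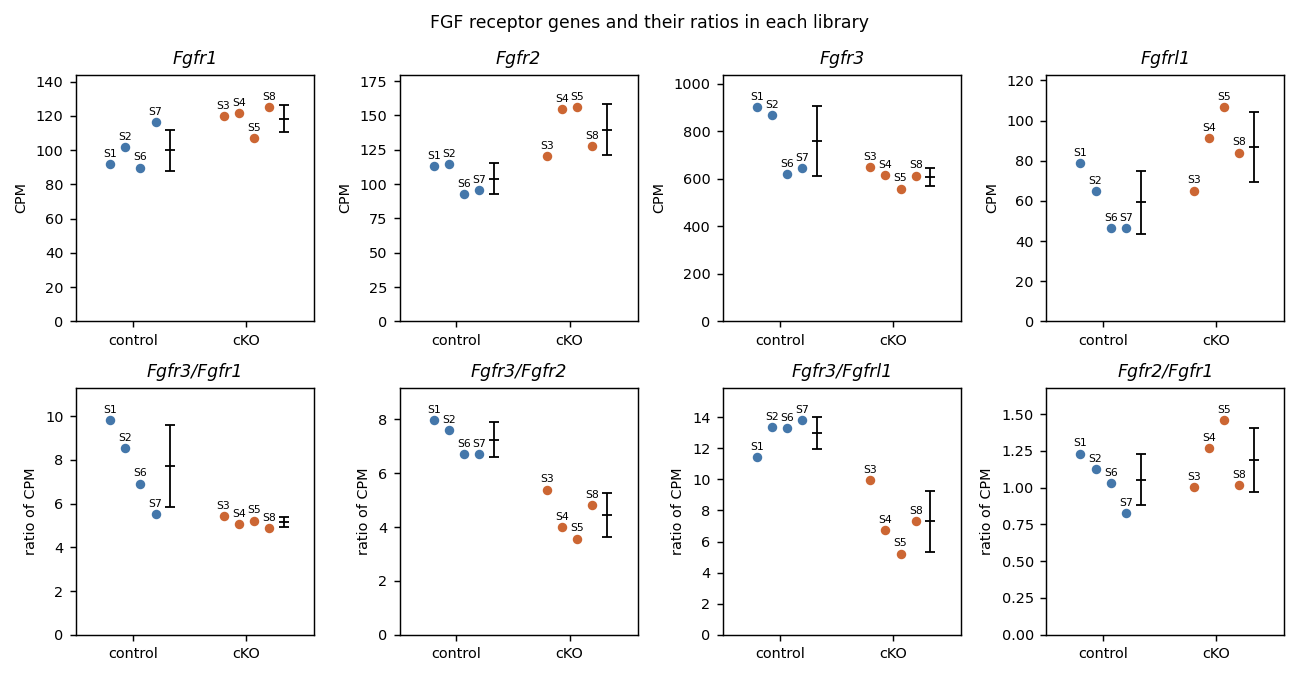
CPM of the 4 tested receptor genes (top) and ratios of their CPM (bottom) in each of 4 control and 4 cKO libraries, labelled by library, with the group mean ± SD in black and axes from 0. Fgfr2 and the 3 ratios with Fgfr3 separate the groups, at 7.25 ± 0.639 against 4.44 ± 0.815 for Fgfr3 to Fgfr2, while Fgfr2 to Fgfr1 overlaps.

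The Sprouty and Spred genes encode membrane-linked inhibitors of the RAS and ERK cascade that FGF signalling induces. Of these 7 genes 6 were tested and 0 were called, with 3 estimates above 0 and 3 below, and Spry3 had 0 counts in all 8 libraries. Spry2 was the most abundant Sprouty gene, at 86.8, 95.4, 69.7 and 57.2 CPM in controls and 84.6, 104, 102 and 104 CPM in cKO. Only cKO S3 lay within the range of the controls. For Spry2 the log2 fold change was 0.35, with a 95% interval of −0.043 to 0.75. Spry4 was at 37.4, 31.7, 31.1 and 22.5 CPM in controls and 27.6, 26.7, 30.5 and 29.8 CPM in cKO, with all cKO libraries inside the control range. Its log2 fold change of −0.10 changed sign, to 0.0052, under library totals without composition normalization. Spry1 was rare, at 4.82, 2.11, 5.22 and 5.07 CPM in controls and 3.98, 2.09, 1.1399 and 6.21 CPM in cKO.

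Spred1 encodes an inhibitor that brings neurofibromin to the membrane to turn RAS off. It was at 153, 159, 186 and 122 CPM in the controls and 140.05, 133, 98.4 and 151 CPM in cKO. The groups overlapped widely and the log2 fold change was −0.25, with a 95% interval of −0.63 to 0.14. Spred2 was at 101, 74.5, 94.1 and 67.4 CPM in controls and 76.7, 138, 90.3 and 92.8 CPM in cKO, where S4 stood above all other libraries. On the deposited FPKM values the signs of Spred1 and Spred2 were the opposite, at 0.031 and −0.059 with a pseudocount of 0.1. Spred3, whose exons overlap Ggn on the opposite strand, was at 26.9, 21.8, 16.8 and 10.4 CPM in controls and 19.7, 23.9, 20.8 and 31.2 CPM in cKO. The lowest adjusted p of the Sprouty and Spred genes was 0.558 by edgeR QL, and the 95% interval stayed within a 2-fold change for 5 of the 6.

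ETV1, ETV4 and ETV5 are ETS transcription factors of the PEA3 group, whose genes are among the usual readouts of FGF and ERK activity. All 3 had estimates above 0 and overlapping groups. Etv5 was the second most abundant member by FPKM, and its libraries were at 176, 151, 121 and 204 CPM in the controls and 162, 238, 252 and 210.4 CPM in cKO. Of the cKO libraries, S3 fell within the control range and the other 3 lay above it. Etv5 had a log2 fold change of 0.40 (standard error 0.19), a 95% interval of −0.017 to 0.82 and an adjusted p of 0.525 by edgeR QL. Etv4 was at 37.6, 38.5, 38.8 and 64.2 CPM in controls and 37.3, 53.7, 82.1 and 72.2 CPM in cKO. Control S7 stood apart from the other 3 controls, and cKO S3 was the lowest of all 8 libraries. Its log2 fold change was 0.45 with a 95% interval of −0.11 to 1.02. Etv1 was at 33.8, 33.8, 28.3 and 29.5 CPM in controls and 28.7, 51.7, 48.6 and 37.97 CPM in cKO, again with only cKO S3 inside the control range, and its log2 fold change was 0.41 with a 95% interval of −0.053 to 0.88.

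Dusp6, which encodes the cytoplasmic phosphatase of ERK, had the smallest log2 fold change of the 23 tested members in the edgeR fit, though not under library totals, limma-voom, FPKM or most fits with 1 library left out. It was at 62.2, 65.3, 30.1 and 44.4 CPM in controls and 43.7, 54.4, 68.05 and 39.6 CPM in cKO, and the groups overlapped widely. Dusp6 thus had a log2 fold change of 0.027 (standard error 0.26), a 95% interval of −0.53 to 0.58 and an adjusted p of 0.984 by edgeR QL. A change of 2-fold in either direction lies outside that interval. Promoters of Dusp6 and Spred1 are given as examples of feedback genes with the motif CGGAAG, marked in capitals on either strand (shorter GGAA cores are not marked), from RefSeq on GRCm38.p6. The Spred1 window holds 2 matches to CGGAAG, starting 17 bases before and 7 after the start, and the Dusp6 window 1, on the minus strand and 62 bases before the start. Spred2 had a match as well, while the windows of Spry1, Spry2, Spred3, Etv1 and Etv5 had none. The share of member promoters with CGGAAG (18.9%) was near that of all promoters (16.9%).
Dusp6, chr10:99262981-99263280, plus strand: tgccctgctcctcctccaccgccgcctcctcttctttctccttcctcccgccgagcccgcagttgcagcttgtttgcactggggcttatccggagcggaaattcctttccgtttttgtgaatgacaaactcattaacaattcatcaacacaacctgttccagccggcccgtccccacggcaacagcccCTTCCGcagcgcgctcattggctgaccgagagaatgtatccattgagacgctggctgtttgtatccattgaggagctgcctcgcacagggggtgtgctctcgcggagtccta
Spred1, chr2:117120821-117121120, plus strand: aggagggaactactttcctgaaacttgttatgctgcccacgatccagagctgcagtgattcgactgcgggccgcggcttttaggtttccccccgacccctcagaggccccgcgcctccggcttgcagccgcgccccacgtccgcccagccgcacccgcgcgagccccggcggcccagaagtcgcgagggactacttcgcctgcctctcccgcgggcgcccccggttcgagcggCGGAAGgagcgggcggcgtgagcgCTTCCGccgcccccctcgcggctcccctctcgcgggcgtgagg

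**Figure D3:**
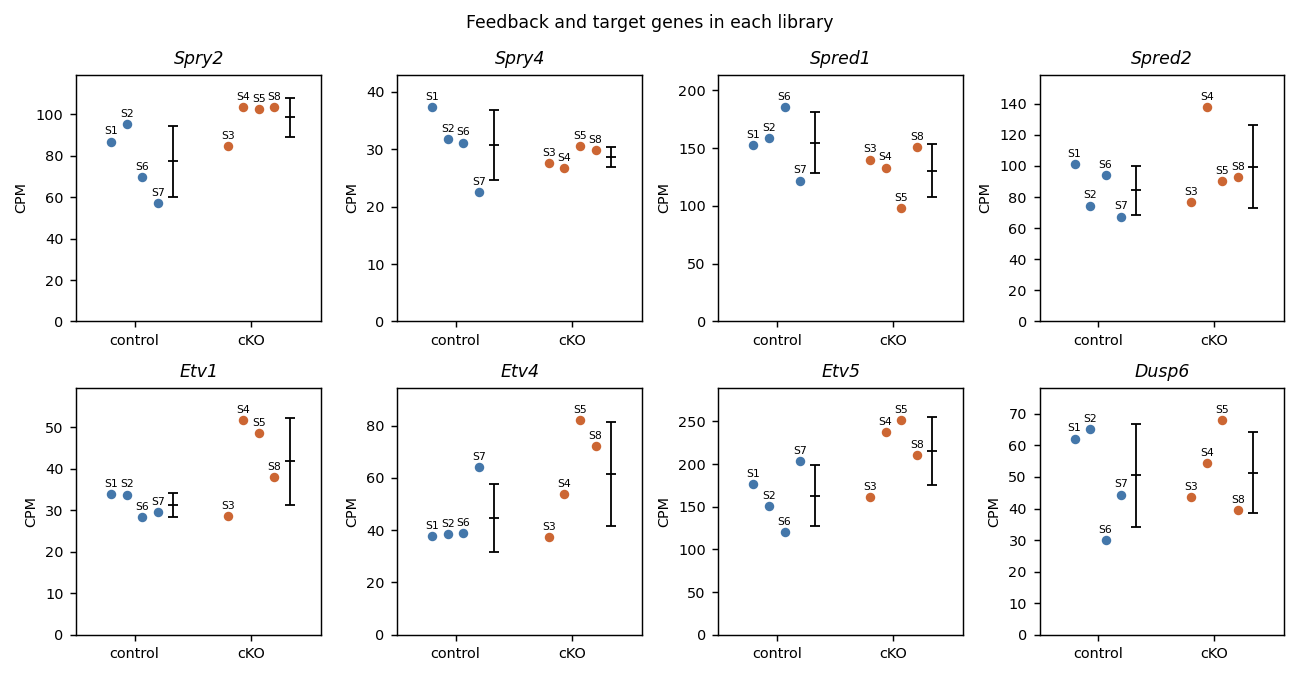
CPM of 8 feedback and target genes in each of 4 control and 4 cKO libraries, labelled by library, with the group mean ± SD in black and axes from 0. cKO S3 is the lowest cKO library for Spry2, Spred2, Etv1, Etv4 and Etv5, and the Dusp6 groups overlap at 50.5 ± 16.4 and 51.4 ± 12.7 CPM.

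Some libraries were often at the edge of their group. Among the cKO libraries, S3 was the lowest for 11 of the 23 tested members (47.8%), among them Fgfr2, Fgfrl1, Spry2, Etv1, Etv4 and Etv5, whereas it was the lowest of its group for 19.3% of all tested genes. Among the controls, S7 was the lowest for 10 of the 23 members (43.5%), among them Fgf1, Fgfrl1, Spry2, Spred2 and Spred3, and for 31.7% of all tested genes. Because cKO S3 was the lowest cKO library for the genes named next, leaving it out had to raise their estimates, and the values are a description. Without cKO S3, 5 members had an unadjusted p under 0.05 (Fgfr2, Fgfrl1, Etv1, Etv4 and Etv5), all with estimates above 0, where 9.73% of all genes did and 5.1% did so above 0. Their log2 fold changes were then 0.50, 0.67, 0.56, 0.64 and 0.53, and the lowest adjusted p was 0.330, by edgeR QL, so that 0 members were called. Leaving out control S7 gave 4 members with an unadjusted p under 0.05, control S2 gave 3, cKO S5 gave 1 and cKO S4 gave 0, beside 2 with all libraries and 2 without control S1, control S6 or cKO S8. The Kcnj10 level of cKO S3 was within 27.2 to 37.6 CPM, as in every cKO library. Of the 8 libraries, cKO S3 had the highest scaling factor (TMM), 1.17 against 0.933 to 1.06. Its share of ribosomal RNA-like reads was the lowest (32.6%). It also had the most genes detected (20470) and the largest share of reads assigned to no gene for any reason (61.7%). The part of these traits in its member values was not tested.

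**Figure D4:**
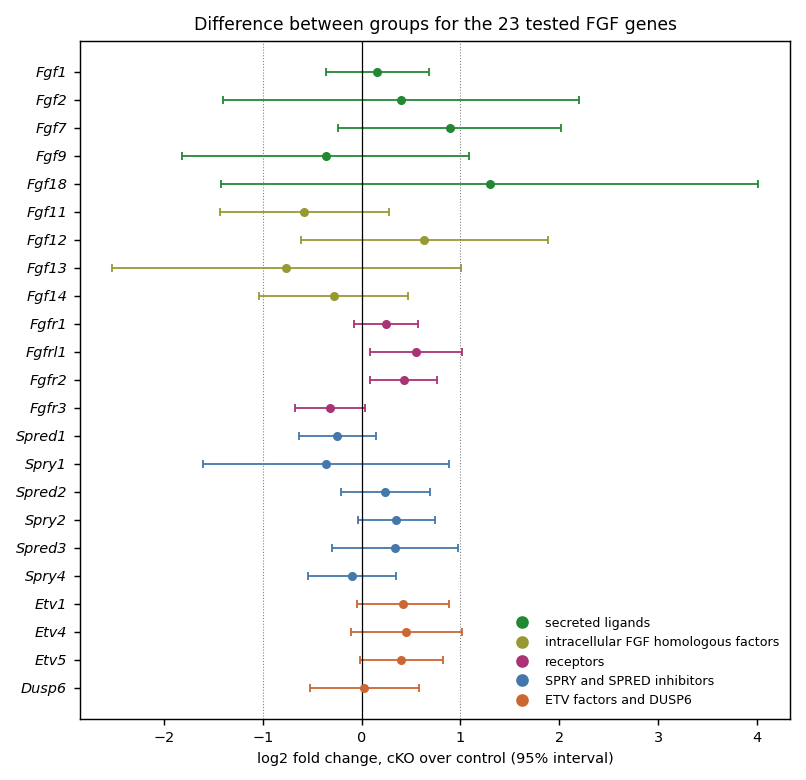
Log2 fold change of cKO over control with its 95% interval for the 23 tested FGF genes, coloured by role; dotted lines mark a 2-fold change. The intervals of Fgfr2 (0.086 to 0.76) and Fgfrl1 (0.085 to 1.02) lie above 0, and those of rare genes such as Fgf18 are wide.

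Around the members, the other genes of the pathway were taken from 5 lists: co-receptors and ligand carriers, heparan sulfate proteoglycans with their enzymes, adaptors, the RAS, MAPK and AKT cascade, and other ERK-induced genes. Of 90 tested genes 1 was called, Akt2, beside 0.318% of all tested genes, and the median log2 fold change was 0.037. At an unadjusted p under 0.05 there were 10 of the 90, beside 9.81% of all tested genes. None of the 24 heparan sulfate genes, the 14 adaptors (among them Frs2, Grb2 and Gab1) or the 8 co-receptors and carriers was called by edgeR, with 0, 0 and 1 of them at an unadjusted p under 0.05. DESeq2 called 3 genes over all lists, Akt2, Errfi1 and Rps6ka1, where it called 2.07% of all genes.

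Akt2 encodes a kinase of the AKT family, which acts downstream of PI3 kinase and is known for its part in insulin signalling. It was at 42.7, 37.9, 51.2 and 42.2 CPM in controls and rose to 79.5, 115, 169 and 119 CPM in cKO. All cKO libraries lay above all controls. Akt2 had a log2 fold change of 1.47 (standard error 0.22) and an adjusted p of 0.0140 by edgeR QL. The call was lost without control S2 or without cKO S4, where the adjusted p was 0.0627 and 0.0618 by edgeR QL, and on FPKM values. The log2 fold change was 1.41 and 1.49 without those libraries, and 1.601 and 1.58 on FPKM with pseudocounts of 0.1 and 1.

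The groups did not overlap for 10 of the 90 genes, 5 higher and 5 lower in cKO, beside 6.34% of all tested genes (3.39% higher and 2.94% lower). All of these but Akt2 were not called. Cdh2, the N-cadherin that can bind FGFR1, was at 266 ± 34.1 CPM without cre and 373 ± 56.6 CPM in cKO (SD, n = 4 each). Its log2 fold change was 0.49 and its adjusted p 0.311 by edgeR. L1cam, a neural adhesion molecule, was at 1.89 ± 0.421 and 3.40 ± 0.809 CPM, and Hs6st1, which adds sulfate to heparan chains, at 28.7 ± 2.72 and 21.01 ± 4.57 CPM. Of the cascade, the RAS GTPase activator Rasa2 was at 61.1 ± 8.62 and 39.3 ± 11.9 CPM and the ribosomal S6 kinase Rps6ka2 at 13.8 ± 4.64 and 6.23 ± 2.40 CPM (SD, n = 4 each).

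The ERK-induced genes outside the FGF set did not share a direction. Errfi1, a feedback inhibitor of the EGF receptor, was at 363, 408, 394 and 369 CPM in controls and 225, 179, 109.5 and 339 CPM in cKO. Its log2 fold change was −0.85 and its adjusted p 0.271 by edgeR. Dusp16, a phosphatase of JNK and p38, was at 16.6 ± 4.52 CPM in controls and 8.11 ± 2.61 CPM in cKO, while Dusp1 was at 20.96 ± 8.82 and 37.8 ± 4.02 CPM (SD, n = 4 each). For these 3 genes the libraries did not overlap, and 0 of the 21 tested genes of this list were called by edgeR, with 4 at an unadjusted p under 0.05, beside 9.81% of all tested genes.

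Immediate early genes, which ERK signalling and tissue dissociation can both raise, were examined beside the members. Of 18 tested, 0 were called by edgeR and 1 had an unadjusted p under 0.05, beside 9.81% of all tested genes. That gene, Fos, was at 4.18, 1.38, 3.95 and 4.31 CPM in controls and 16.3, 4.99, 4.79 and 13.1 CPM in cKO, with the groups apart and cKO S3 highest. In that library Etv4 was lowest, and any part of dissociation in the member levels was not tested.

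In the authors' deposited table, 20 of the 38 members have an adjusted p, 0 of them are under 0.05, and the lowest is 0.173, for Fgfr2, where 2.87% of all genes with an adjusted p are called. The sign of the log2 fold change in the authors' deposited table was that found here for all 23 tested members.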

How the data were processed

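Per the submitters' processing notes, TopHat2 2.0.11, Bowtie2 2.2.3 and HTSeq 0.6.1p1 were used on GRCm38. Annotation release and strand setting are not given in the sources used here. The authors deposited whole-number counts per gene for each of 8 libraries. The 5 summary lines of each count table, 56.4% to 61.7% of reads, name no gene and were left out. The authors also deposited FPKM values, which the notes link to Cuffnorm. Compared over 11803 genes, 3 of 8 FPKM columns matched best the counts under their own name, and all 8 matched best a library of their own group, so FPKM was used by group only. In the authors' deposited DESeq2 table, group means are scaled counts (a signal per gene), log2 fold changes are smaller than the ratio of those means, standard errors and Wald statistics are scores, and p-values come with their adjustment.

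Counts were tested here with edgeR 4.0.16 (TMM, filterByExpr, quasi-likelihood test, Benjamini-Hochberg adjustment over 14757 genes, threshold 0.05), and intervals use that test's degrees of freedom. The fit was run on simulated counts that varied less between replicates than these data, whose biological coefficient of variation was 0.473. It recovered 75% of the simulated 2-fold changes and 100% of the 4-fold changes, which does not give its power in these data. CPM use TMM-adjusted library sizes. Exact permutation tests used log2 CPM with 1 added. The series' design text calls the 4 libraries of a group biological replicates, and no replicate number occurs in both groups. Coordinates and exon overlaps are from GENCODE M21 on GRCm38 and promoters from RefSeq. R 4.3.3, Python 3.11.15, DESeq2 1.42.0 and limma 3.58.1 were used. Values in every library were given for members whose groups do not overlap, receptors, feedback genes and the 5 ligands of highest mean CPM, with further ligands added after their values were seen. List genes were named if called or not overlapping. 1 such gene is not reported here. Members and lists were chosen with earlier results of these data known.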

Additional observations from a re-analysis of the deposited data

Results flagged for a closer look

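In groups of 4 libraries, a library was noted when its gap to the nearest of the others was larger, relative to the range of its group, than Dixon's 95% critical value, which chance gives in about 1 of 20 groups. This occurred in 5 of 46 groups of the tested FGF genes, where 2.3 are expected by chance.

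Etv4 was at 64.2 CPM in control S7 and at 37.6 to 38.8 CPM in the other controls. Fgf9 was at 2.51 CPM in the same library and at 1.08 to 1.26 CPM in the other controls. Control S7 also had the highest summed level of oligodendrocyte precursor markers, 1810 CPM against 681 to 1170.3 CPM in the other controls. It was likewise the highest control for markers of oligodendrocytes (2994 against 1527 to 2404 CPM) and neurons (91.5 against 63.4 to 80.1 CPM). The same held for the Schwann cell list (1094 against 565 to 828 CPM), but not for the remaining lists. The part of any of these markers in the Etv4 and Fgf9 values was not tested.

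Spry2 was at 84.6 CPM in cKO S3 and at 102 to 104 CPM in the other cKO libraries. Fgf9 was at 1.84 CPM in cKO S3 and at 0.855 to 0.998 CPM in the others. Of the cKO libraries, S3 was not the highest for markers of oligodendrocyte precursors, oligodendrocytes, neurons or Schwann cells. Neuron markers summed to 40.3 CPM there and to 39.98 to 77.2 CPM in the others. S3 was the highest for microglial (66.7 CPM), endothelial (57.6 CPM), ependymal (29.7 CPM), and fibroblast and meningeal markers (187 CPM). The part of these markers in the Spry2 and Fgf9 values was not tested. Spry1 was at 2.11 CPM in control S2 and at 4.82 to 5.22 CPM in the other controls.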

How the results depend on the processing

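No FGF gene was called by edgeR, DESeq2, limma-voom or limma on FPKM under any of the 18 alternatives, and the lowest adjusted p of a member over these was 0.235, for Fgfr2 with DESeq2. The 47 genes called over all genes became 306 with DESeq2, 87 when genes needed only 1 count in some library, 84 when they needed 10 in every library, 28 with Xist level as a covariate, and 11 and 7 on FPKM with pseudocounts of 0.1 and 1. They ranged from 4 to 45 over the fits that left out 1 library, with 4 without cKO S4, 14 without control S2, 16 without control S6, 24 without cKO S5, 28 without cKO S8 and 30 without control S1. Library totals without composition normalization moved the split from 30 higher and 17 lower to 48 and 14, moved the median of all genes from −0.017 to 0.091, and gave 7 members an unadjusted p under 0.05 in place of 2. With limma-voom 4 members had an unadjusted p under 0.05. With the filter of 1 count in some library it was 5 of 28 by edgeR, among them Fgfr4 and Fgf17, which had few reads. The share of all genes is not given here for these fits. The 1 pathway call became 3 with DESeq2 and 0 on FPKM with either pseudocount, and ranged from 0 to 1 with 1 library left out. The cause of these shifts was not tested.

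Of 411 member fold changes under alternatives, 16 changed sign, in 8 members of which none was called. On FPKM with pseudocounts of 0.1 and 1 the log2 fold change of Fgf13 was 0.36 and 0.085, of Spred1 0.031 and 0.030, and of Spred2 −0.059 and −0.058. Spry4 became 0.0052 under library totals and Dusp6 −0.052 with Xist as a covariate. With 1 library left out, Fgf1 ranged from −0.055 to 0.31, Fgf9 ranged from −0.66 to 0.0062, Fgf18 ranged from −0.11 to 2.07, Spry4 ranged from −0.22 to 0.0078 and Dusp6 ranged from −0.16 to 0.17. No paired analysis was possible because the groups share no replicate number. The 95% intervals of Fgf2, Fgf7, Fgf9, Fgf18, Fgf11 to Fgf14 and Spry1, all with few reads, and of Fgfrl1 and Etv4 reached past a 2-fold change.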
